A study of Mus musculus with 4 samples.

Results

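The genes described here encode the proximal T cell receptor (TCR) signalling machinery: Cd3e, Cd3d, Cd3g and Cd247 (the CD3 chains), Lck and Zap70 (the kinases that start the signal), Lat and Lcp2 (the adaptors) and Tec (a TEC family kinase). They were followed by ATAC-seq, in which a transposase cuts accessible DNA, in Treg cells from lymph nodes (LNs). All peaks that overlapped the body of one of the 9 genes, or 20 kb on either side of it, were taken from the peak lists of the 4 libraries and joined wherever they overlapped by at least 1 bp. This gave 119 regions, of 272233 regions in the whole genome. The rule names the genes by their place in the pathway and uses no value of these peaks, but it was set with earlier results of these data known.

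The TCR has no enzyme activity of its own. Its signal passes through immunoreceptor tyrosine-based activation motifs in the tails of the CD3 chains, which Lck phosphorylates and which then dock Zap70. Zap70 phosphorylates Lat and Lcp2 (SLP-76), the scaffold on which phospholipase, exchange factors and TEC family kinases gather. Treg cells need this pathway both for their selection in the thymus and for their suppressive function in the periphery.

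Each library came from 50000 Foxp3-RFP+ cells, enriched by negative selection and sorted by flow cytometry from the LNs of a naive female mouse of 6 to 8 weeks on the C57BL/6 background. All mice carried the Foxp3 reporter, and the sort was on the reporter, not on CD25. WT (2 libraries) and Il2ra mut/mut (2 libraries) differed in Il2ra, which encodes CD25, the alpha chain of the IL-2 receptor. The mutant allele is a spontaneous point mutation in the line, which lowers CD25 at the cell surface of every cell that uses the gene, so that cells other than Treg cells carry it too. The comparison asks whether the chromatin of these TCR genes differed between Treg cells with intact and with impaired IL-2 reception.

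The deposited lists held 112569 to 142732 peaks per library, each with its fold enrichment at the summit over background, and the number of reads per library is unknown. WT replicate 2 stood apart. It had the highest fold enrichment of the 4 libraries in 54.9% of the 38426 regions of the genome called in all 4 libraries, and in 46 of the 64 such regions of the TCR genes (71.9%). Fold enrichments are therefore given per library, beside the percentile of each peak among all peaks of its own library (100 is the highest −log10 p), and results that rest on this library are also given without it. Promoters of T cell genes (5 of 5 markers) and Treg genes (6 of 6, Foxp3, Ctla4 and Il2ra among them) had a peak within 1 kb of a start site in all 4 libraries. This was so for 1 of 6 B cell markers (Ebf1), 0 of 6 myeloid, 0 of 3 NK and 0 of 3 erythroid markers. The myeloid marker Cebpa had a peak in 3 libraries, with percentiles of 81.0 in WT replicate 2 and 86.2 and 88.8 in Il2ra mut/mut. These lay above the Foxp3 promoter in the same libraries (78.5, 72.6 and 79.7). Cd79b (B cell), Cd14 (myeloid) and Eomes (NK) each had a peak in 2 libraries. Of the CD8 T cell markers, Cd8a had no peak in any library and Cd8b1 had one in all 4. An open region in fewer cells cannot be told apart from a less open region in all cells.

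The TCR genes were densely open in both genotypes. Of their 119 regions, 64 were called in all 4 libraries (53.8%), against 14.1% of the regions of the genome. A further 11 were called in 3 libraries, 14 in 2 and 30 in 1, and 21 of these 30 came from WT replicate 2. Regions called in all 4 libraries ranged from 4 (Lat) to 16 (Cd247) per window, or 4.58 (Tec) to 15.3 (Lck) per 100 kb of window. The median of 21911 protein-coding genes was 2.16 per 100 kb, and Lck lay above 98.6% of them and Tec above 73.8%. Of the 64 regions, 13 lay at promoters of the TCR genes, 26 in introns, 3 in exons and 22 in the flanks, 4 of which were at the promoters of neighbouring genes (Ube4a, Hdac1, Spns1 and Txk).

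All 9 promoters were called in all 4 libraries, compared with 11422 of the 21911 protein-coding genes (52.1%). Over those 11422 genes the median of the mean promoter percentile was 94.2. Lat, Cd3g, Lck and Zap70 lay above this median, and Cd3e, Cd247, Cd3d, Lcp2 and Tec below it. The order of the promoters by mean percentile was Lat (97.9), Cd3g (96.4), Lck (95.2), Zap70 (95.0), Cd3e (94.1), Cd247 (91.2), Cd3d (87.1), Lcp2 (85.1) and Tec (79.2). Neighbours in this order overlapped in their 4 values from Lck down to Tec (those of Cd3e and Cd247 only met, at 93.0), and the values of Cd3g (95.3 to 97.1) overlapped those of Lck (94.4 to 96.5) but lay below those of Lat (97.3 to 98.5). The adaptor Lat thus had the most open promoter of the list in both genotypes. The last place of the kinase Tec, which T cells share with other blood cells, came from WT (mean 72.2, with 62.4 in replicate 1), since in Il2ra mut/mut Tec (86.1) stood above Lcp2 (84.5).

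**Figure D1:**
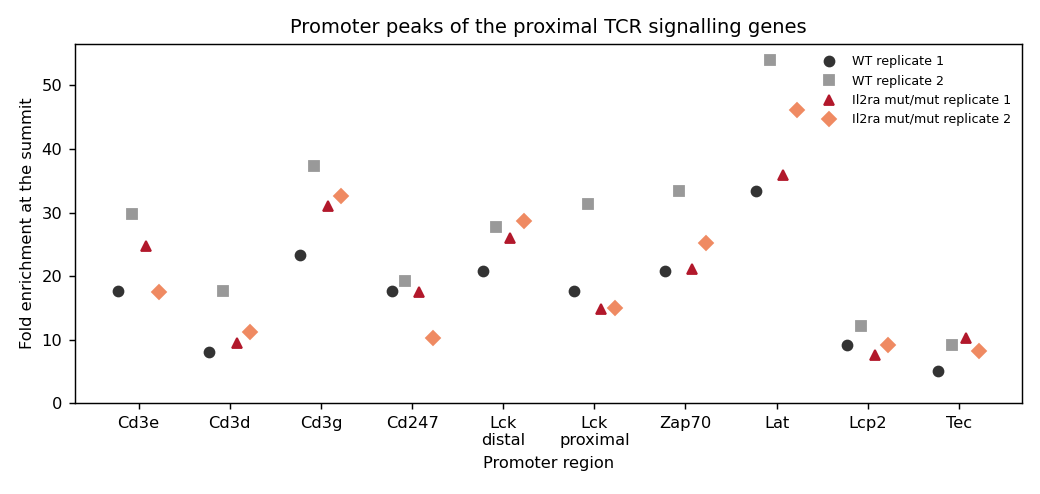
Fold enrichment at the summit of the promoter peak of each gene (y axis), with 1 point per library and both promoters of Lck shown. WT replicate 2 is the highest point at most promoters, and at the Tec promoter WT replicate 1 is the lowest point with a fold enrichment of 5.07.

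The genes for the CD3 epsilon, delta and gamma chains lie side by side on chromosome 9 of mm10. Cd3g (ENSMUSG00000002033, chr9:44969572-44980431, minus strand) and Cd3d (ENSMUSG00000032094, chr9:44981786-44987339, plus strand) are divergent neighbours whose windows share most regions with that of Cd3e (ENSMUSG00000032093, chr9:44998740-45009627, minus strand). The cluster held 15 regions, 10 of them called in all 4 libraries. Its strongest region, chr9:44985497-44987538, lay 4.9 kb downstream of the Cd3d start site, at the far end of the gene, over an exon with untranslated sequence. The fold enrichment there was 33.9 (replicate 1) and 56.1 (replicate 2) in WT against 40.4 and 42.8 in Il2ra mut/mut, and values are given in this order of replicates throughout. It ranked in the top percentiles of every list (97.6 to 98.5), above the promoter of Cd3d itself in each library.

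At the Cd3g promoter the fold enrichment was 23.3 and 37.4 in WT against 31.0 and 32.6 in Il2ra mut/mut. The Cd3d promoter showed 8.11 and 17.7 in WT against 9.42 and 11.2 in Il2ra mut/mut. The Cd3e promoter (chr9:45009139-45010133) showed 17.7 and 29.8 in WT against 24.7 and 17.5 in Il2ra mut/mut. At all 3 promoters the genotypes overlapped. Of the 10 regions of the cluster, 1 separated the genotypes by percentile, a weak region 11.3 kb downstream of the Cd3e start site (chr9:44998123-44998555). Its percentiles were 84.2 and 71.3 in WT against 5.43 and 62.3 in Il2ra mut/mut, with 16 and 11 reads at the summit in WT against 7 and 9 in Il2ra mut/mut. Of the regions of the genome called in all 4 libraries, 12.6% showed this order and 26.2% the reverse. A region in intron 1 of Cd3g (chr9:44979113-44979410) was called in both WT libraries (fold enrichment 4.05 and 4.04) and in neither Il2ra mut/mut library, close to the lower end of the lists.

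Cd247 (ENSMUSG00000005763, chr1:165788681-165877277, plus strand) encodes the zeta chain, which carries most of the activation motifs of the receptor complex. It had the most regions of the 9 genes (30, of which 16 were called in all 4 libraries), and 12 of the 16 lay in its long first intron. The promoter region (chr1:165788465-165788915) had a fold enrichment of 17.7 and 19.2 in WT against 17.5 and 10.2 in Il2ra mut/mut, and its genotypes overlapped in percentile. Around it the picture was mixed. In 6 regions both WT libraries stood above both Il2ra mut/mut libraries in percentile, at 7.6 kb upstream of the start site and at 14.7, 27.8, 40.1, 49.1 and 61.6 kb downstream. In 4 regions both Il2ra mut/mut libraries stood above both WT libraries, at 1.4, 13.3, 22.1 and 60.4 kb downstream. Over all regions of the genome called in all 4 libraries, these percentile orders were found in 12.6% (WT higher) and 26.2% (Il2ra mut/mut higher). The 4 of 16 were thus near the share of the genome. Fold enrichments also stood apart at the 6 regions higher in WT, but among the 4 only at 13.3 kb.

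Among regions higher in WT, that at 27.8 kb (chr1:165816301-165816893) had percentiles of 86.7 and 89.6 in WT against 78.9 and 79.7 in Il2ra mut/mut. Its fold enrichment was 10.1 and 16.2 in WT against 6.73 and 6.32 in Il2ra mut/mut, which corresponds to 19 and 31 reads at the summit against 14 and 12. The region at 49.1 kb (chr1:165837425-165838282) had percentiles of 83.2 and 88.6 in WT against 72.6 and 62.3 in Il2ra mut/mut. Both regions were therefore open in all 4 libraries, and stood lower in the ranking of both Il2ra mut/mut libraries.

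Among regions higher in Il2ra mut/mut, that at 60.4 kb (chr1:165848327-165849750) had percentiles of 81.9 and 87.3 in WT against 88.7 and 92.6 in Il2ra mut/mut. It lay next to the region at 61.6 kb (chr1:165849820-165850499), which had 78.2 and 84.5 in WT against 66.2 and 71.4 in Il2ra mut/mut. These adjacent regions thus differed in opposite directions. The region at 13.3 kb (chr1:165801682-165802191) had 81.9 and 83.8 in WT against 88.3 and 89.7 in Il2ra mut/mut, while the region at 14.7 kb (chr1:165802984-165803682) had 86.7 and 92.8 in WT against 84.0 and 83.3 in Il2ra mut/mut.

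The summit sequences of 4 regions of the first intron are shown because their percentiles stood apart between the genotypes, 2 in each direction. They are given on the plus strand (GRCm38, 100 bases on either side of the summit), with capitals for matches to any of 11 short words of transcription factor families on either strand, which are spelled out further on. The region at 13.3 kb (chr1:165801848-165802048) held an AP-1 and an Ikaros word, that at 27.8 kb (chr1:165816430-165816630) an E-box and an Ikaros word, that at 49.1 kb (chr1:165837683-165837883) a GATA, an E-box and 2 overlapping RUNX words, and that at 60.4 kb (chr1:165848969-165849169) an ETS and 2 E-box words.
Cd247, 13.3 kb (higher in Il2ra mut/mut): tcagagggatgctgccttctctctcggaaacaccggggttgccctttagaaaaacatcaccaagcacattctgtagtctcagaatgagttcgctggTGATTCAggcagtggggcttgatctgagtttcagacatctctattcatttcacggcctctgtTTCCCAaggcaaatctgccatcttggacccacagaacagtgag
Cd247, 60.4 kb (higher in Il2ra mut/mut): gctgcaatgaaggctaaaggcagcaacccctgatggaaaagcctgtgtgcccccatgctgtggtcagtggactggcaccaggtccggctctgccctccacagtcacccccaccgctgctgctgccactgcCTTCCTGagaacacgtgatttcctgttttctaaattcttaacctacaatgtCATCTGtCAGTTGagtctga
Cd247, 27.8 kb (higher in WT): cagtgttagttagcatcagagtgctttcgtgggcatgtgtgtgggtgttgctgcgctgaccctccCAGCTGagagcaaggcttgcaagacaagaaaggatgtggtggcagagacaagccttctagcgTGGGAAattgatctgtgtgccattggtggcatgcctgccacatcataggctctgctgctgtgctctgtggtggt
Cd247, 49.1 kb (higher in WT): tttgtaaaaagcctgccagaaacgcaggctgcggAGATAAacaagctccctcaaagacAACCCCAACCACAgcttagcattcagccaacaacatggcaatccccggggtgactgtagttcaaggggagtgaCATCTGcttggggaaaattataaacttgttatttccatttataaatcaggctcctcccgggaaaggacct

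**Figure D2:**
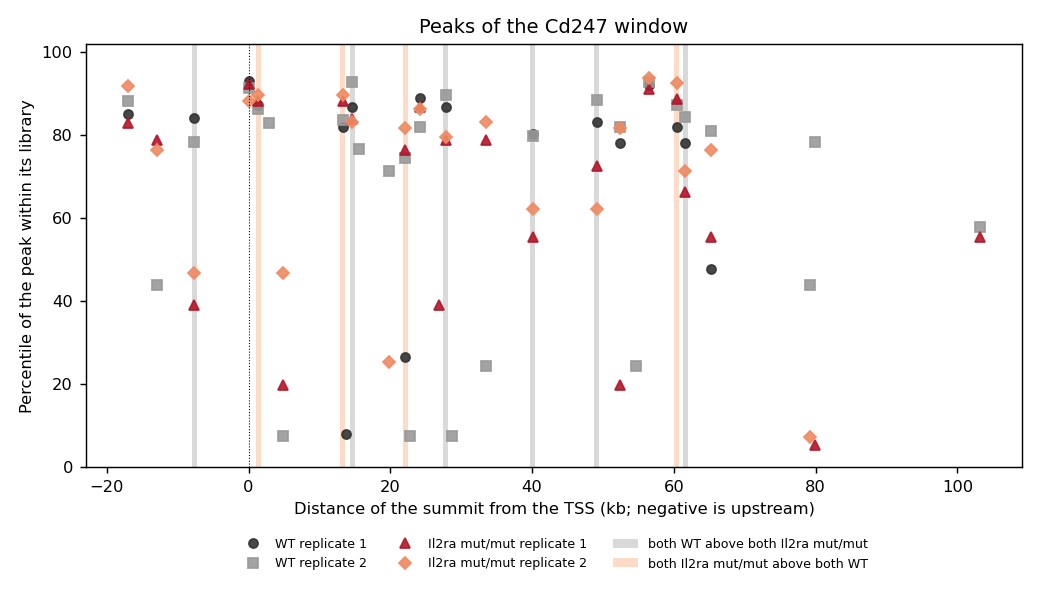
Percentile of each called peak within its library (y axis) against the distance of the region from the Cd247 start site in kb (x axis), with 1 point per library. Grey bands mark the 6 regions where both WT libraries lay above both Il2ra mut/mut libraries and orange bands the 4 regions with the reverse order, interspersed along the window.

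Lck (ENSMUSG00000000409, chr4:129548344-129573641, minus strand) encodes the SRC family kinase that phosphorylates the CD3 chains and Zap70. It has a proximal promoter, known for its activity in thymocytes, and a distal promoter, known for its activity in mature T cells. Both were open here, with summits 15 kb apart. The distal promoter (chr4:129573126-129574332) had a fold enrichment of 20.8 and 27.8 in WT against 26.0 and 28.7 in Il2ra mut/mut. The proximal promoter (chr4:129558152-129559028) had 17.7 and 31.3 in WT against 14.8 and 15.1 in Il2ra mut/mut.

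By percentile the promoters differed in opposite directions. At the distal promoter the values were 94.4 and 94.5 in WT against 95.5 and 96.5 in Il2ra mut/mut, with both Il2ra mut/mut libraries higher. At the proximal promoter they were 93.0 and 95.4 in WT against 90.7 and 92.1 in Il2ra mut/mut, with both WT libraries higher. The fold enrichments overlapped between genotypes at the distal promoter and stood apart at the proximal promoter. The ratio of distal to proximal fold enrichment, which compares peaks within a library, was 1.17 and 0.887 in WT against 1.76 and 1.90 in Il2ra mut/mut. The means were 1.03 and 1.83, a difference of 0.84 on the log2 scale (exact permutation test, two-sided, p = 0.33, the smallest p that 2 against 2 libraries allow). This ratio was chosen after the values of both promoters had been seen, and the difference was 0.64 to 1.04 when any 1 library was left out.

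The 200 bases upstream of the outermost annotated start of each promoter are shown since the genotypes stood in opposite percentile order at them. They are given on the strand of the gene with words in capitals. The distal promoter (chr4:129573642-129573841) held 2 ETS words and 1 RUNX word, and the proximal promoter (chr4:129558392-129558591) an adjoining KLF/SP and ETS word and an E-box word.
Lck distal promoter: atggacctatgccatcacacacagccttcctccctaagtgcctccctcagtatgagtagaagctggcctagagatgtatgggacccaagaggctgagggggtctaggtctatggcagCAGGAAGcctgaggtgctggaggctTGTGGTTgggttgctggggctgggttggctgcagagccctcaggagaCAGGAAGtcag
Lck proximal promoter: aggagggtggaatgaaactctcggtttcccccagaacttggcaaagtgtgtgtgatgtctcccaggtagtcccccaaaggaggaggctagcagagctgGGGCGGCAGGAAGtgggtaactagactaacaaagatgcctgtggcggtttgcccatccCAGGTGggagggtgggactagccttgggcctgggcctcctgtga

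The strongest region of the Lck window lay not at a promoter but 1.7 kb upstream of the distal start site (chr4:129574947-129575814). Its fold enrichment was 31.4 and 50.5 in WT against 36.3 and 36.4 in Il2ra mut/mut, with overlapping genotypes. Its summit (chr4:129575199-129575399), shown on the strand of the gene as the most open sequence of the window, held a single RUNX word. In all, 15 regions were found in the window and 10 were called in all 4 libraries, of which 3 stood higher in both Il2ra mut/mut libraries (the distal promoter and regions 8.3 kb downstream and 6.9 kb upstream of it) and 1, the proximal promoter, in both WT libraries. Both counts were near the shares of the genome, 26.2% and 12.6%. A region 1.2 kb downstream of the distal start site had percentiles of 62.4 and 83.0 in WT against 80.6 and 87.7 in Il2ra mut/mut, which overlapped.
Lck upstream region: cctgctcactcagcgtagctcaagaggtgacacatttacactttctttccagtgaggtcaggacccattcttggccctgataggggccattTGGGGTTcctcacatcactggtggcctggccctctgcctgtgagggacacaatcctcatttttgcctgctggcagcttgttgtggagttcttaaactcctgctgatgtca

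**Figure D3:**
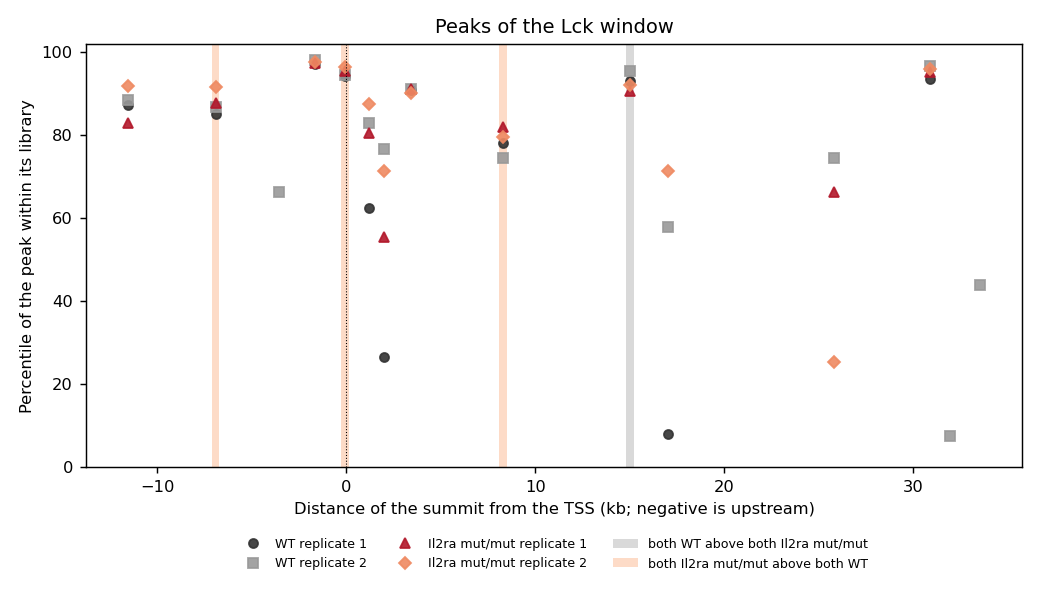
Percentile of each called peak within its library (y axis) against the distance from the distal start site of Lck in kb (x axis), with 1 point per library. The grey band at 15 kb is the proximal promoter, where both WT libraries lay above both Il2ra mut/mut libraries, and the orange bands are the 3 regions with the reverse order.

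Zap70 (ENSMUSG00000026117, chr1:36761798-36782818, plus strand) encodes the kinase that binds phosphorylated CD3 chains. None of its 8 regions called in all 4 libraries separated the genotypes by percentile. Of such regions in the genome, 12.6% stood higher in both WT libraries and 26.2% in both Il2ra mut/mut libraries. The promoter (chr1:36761070-36762543) had a fold enrichment of 20.8 and 33.3 in WT against 21.1 and 25.3 in Il2ra mut/mut. A region 5.2 kb into the gene, in intron 1 (chr1:36766403-36768075), had 13.2 and 32.3 in WT against 24.7 and 30.1 in Il2ra mut/mut, so that WT replicate 1 lay below the other 3 libraries. The other regions of the window were weaker, with fold enrichments of 3.89 to 14.7.

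Lat (ENSMUSG00000030742, chr7:126363824-126369570, minus strand) encodes the membrane adaptor that Zap70 phosphorylates. It is the most compact of the loci after Cd3d, and its strongest region was the promoter (chr7:126369128-126370045), with a fold enrichment of 33.4 and 54.1 in WT against 35.9 and 46.2 in Il2ra mut/mut. The genotypes overlapped there. A region over a coding exon 1.8 kb downstream (chr7:126367556-126368045) had percentiles of 78.2 and 82.1 in WT against 87.8 and 87.7 in Il2ra mut/mut. It was the only separated region of the 4 called in all 4 libraries. This order was found in 26.2% of such regions of the genome. A region 4.6 kb upstream (chr7:126374077-126374286) was called in both WT libraries (fold enrichment 5.57 and 4.04) and in neither Il2ra mut/mut library.

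Lcp2 (ENSMUSG00000002699, chr11:34046920-34092295, plus strand) encodes SLP-76, the cytosolic adaptor that joins Lat. Its promoter was modest, with a fold enrichment of 9.12 and 12.1 in WT against 7.63 and 9.23 in Il2ra mut/mut. The strongest region was in intron 3, 17.3 kb from the start site (chr11:34063565-34064612), with 22.8 and 33.9 in WT against 27.8 and 29.2 in Il2ra mut/mut. Of its 26 regions, 9 were called in all 4 libraries. Both WT libraries stood higher at 15.4 and 3.9 kb upstream, and both Il2ra mut/mut libraries at 6.3 and 65.2 kb downstream. Over the genome these orders were found in 12.6% (WT higher) and 26.2% (Il2ra mut/mut higher) of the regions called in all 4 libraries. At 3.9 kb upstream (chr11:34042772-34043184) the percentiles were 93.3 and 93.2 in WT against 91.0 and 89.3 in Il2ra mut/mut, and at 6.3 kb (chr11:34053029-34053462) they were 26.6 and 43.8 in WT against 76.4 and 76.5 in Il2ra mut/mut, where 7 to 13 reads lay under the summits. Calls in 1 genotype only rested on few reads. At chr11:34033969-34034230 both WT libraries had a peak (fold enrichment 5.07 and 5.05, percentiles 62.4 and 58.0, 9 and 9 reads). At chr11:34101897-34102246 both Il2ra mut/mut libraries had one (5.83 and 5.35, percentiles 72.6 and 71.4, 12 and 10 reads).

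The strongest region of Lcp2 and the promoter of Lat, the most open promoter of the 9 genes, are shown on the strand of the gene for comparison. The summit of the intron 3 region of Lcp2 (chr11:34064093-34064293) held a STAT, an ETS and a RUNX word, and the 200 bases upstream of the Lat start site (chr7:126369542-126369741) an Ikaros, an E-box and an ETS word, of which the Ikaros and the E-box word adjoined each other.
Lcp2 intron 3 region: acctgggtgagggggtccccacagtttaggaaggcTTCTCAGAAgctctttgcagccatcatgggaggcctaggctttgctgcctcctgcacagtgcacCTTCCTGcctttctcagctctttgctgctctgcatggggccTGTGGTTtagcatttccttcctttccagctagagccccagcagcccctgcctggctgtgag
Lat promoter: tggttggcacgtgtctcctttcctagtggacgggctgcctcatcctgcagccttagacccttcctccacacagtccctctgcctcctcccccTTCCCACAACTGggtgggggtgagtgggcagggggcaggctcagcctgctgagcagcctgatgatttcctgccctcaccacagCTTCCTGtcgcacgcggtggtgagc

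Tec (ENSMUSG00000029217, chr5:72755716-72868483, minus strand) encodes the founding member of the kinase family that includes Txk. Its own promoter (chr5:72867954-72869303) had the lowest mean rank of the 9 over the 4 libraries, with percentiles of 62.4 and 82.1 in WT against 86.8 and 85.4 in Il2ra mut/mut. The fold enrichment was 5.07 and 9.09 in WT against 10.3 and 8.26 in Il2ra mut/mut, from 9 and 17 reads at the summit in WT against 22 and 16 in Il2ra mut/mut. By percentile both Il2ra mut/mut libraries lay above both WT libraries, but the fold enrichments overlapped. The strongest region of the window, 115.6 kb downstream of the Tec start site (chr5:72752516-72753273), was the promoter of the neighbouring Txk, with a fold enrichment of 40.5 and 61.6 in WT against 54.3 and 54.4 in Il2ra mut/mut. Its percentiles, 98.4 and 98.8 in WT against 99.0 and 99.0 in Il2ra mut/mut, also stood apart, by less than 1 point. A region in intron 2 of Tec, 50.6 kb downstream of the start site (chr5:72817576-72818385), had percentiles of 89.1 and 89.9 in WT against 93.5 and 90.5 in Il2ra mut/mut, with overlapping fold enrichments (12.2 and 16.7 against 20.2 and 12.6). In the reverse order, the region 121.8 kb downstream (chr5:72746542-72746911) had 78.2 and 76.7 in WT against 39.1 and 76.5 in Il2ra mut/mut. Of the 7 regions called in all 4 libraries, 3 thus stood higher in Il2ra mut/mut (26.2% in the genome) and 1 in WT (12.6%). A region in intron 1 of Tec (chr5:72844361-72844725) was called in both Il2ra mut/mut libraries (8.52 and 3.89) and in neither WT library.

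The 200 bases upstream of the Tec start (chr5:72868460-72868659) are shown on the strand of the gene because this promoter differed in rank. They held 2 KLF/SP words and none of the other 10 words.
Tec promoter: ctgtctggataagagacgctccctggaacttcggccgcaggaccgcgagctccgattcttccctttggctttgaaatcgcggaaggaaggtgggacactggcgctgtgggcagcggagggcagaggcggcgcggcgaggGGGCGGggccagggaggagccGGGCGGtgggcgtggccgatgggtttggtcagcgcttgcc

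Across the 9 genes, calls in 1 genotype only were few. Both WT libraries and neither Il2ra mut/mut library had a peak in 3 of the 89 regions called in 2 or more libraries, against 6.97% of such regions in the genome. The reverse was found in 2 of 89, against 9.19%. Percentiles of both Il2ra mut/mut libraries lay above both WT libraries in 13 of the 64 regions called in all 4 libraries (20.3%, against 26.2% in the genome), and the reverse in 11 (17.2%, against 12.6%). Restricting the lists to peaks with a −log10 q value no lower than 3 gave 20 and 6, and giving every library the same number of peaks gave 12 and 18, so the balance of the directions changed with the lists. Leaving out any 1 library compares 1 library with 2 and moved every count: calls in WT only numbered 25 without WT replicate 1, 8 without WT replicate 2 and 5 and 8 without Il2ra mut/mut replicates 1 and 2, and calls in Il2ra mut/mut only 3 to 6. Percentiles stood higher in Il2ra mut/mut in 35 regions without WT replicate 2 (14 higher in WT) and higher in WT in 31 without WT replicate 1 (18 higher in Il2ra mut/mut). Without Il2ra mut/mut replicate 1 the numbers were 28 higher and 19 lower in Il2ra mut/mut, and without replicate 2 they were 19 and 23. With all 4 libraries, fold enrichments also stood apart at each of the 11 regions higher in WT by percentile. Among the 13 with the reverse order they did so only at Cd247 (13.3 kb), Lat (1.8 kb) and Lcp2 (6.3 kb).

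Reproducible open chromatin regions (OCRs) were regions with an irreproducible discovery rate (IDR) of at most 0.05 in a genotype. This rate depends on how high a region ranked in both libraries of the genotype and on how well those ranks agreed. The windows of the 9 genes held 61 OCRs. Of these, 44 were common to both genotypes, 10 were WT-unique (16.4%, against 14.3% of the 29217 OCRs of the genome) and 7 were Il2ra mut/mut-unique (11.5%, against 13.7%). Uniqueness here rested on the height and the agreement of ranks within each genotype. It did not always go with percentiles that stood apart between genotypes. A peak was called in all 4 libraries at 9 of the 10 WT-unique OCRs, as it was at 5 of 7 unique to Il2ra mut/mut. Percentiles were higher in both WT libraries at 5 of the 10, and in both Il2ra mut/mut libraries at 3 of the 7. At the WT-unique OCR of Zap70 they overlapped, with 75.3 and 86.8 in WT against 89.1 and 79.7 in Il2ra mut/mut. Cd247 held 5 of the 10 WT-unique OCRs (7.6 kb upstream and 40.1, 49.1, 52.3 and 61.6 kb downstream) and 3 of the 7 that were unique to Il2ra mut/mut (12.9 kb upstream and 22.1 and 33.5 kb downstream).

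The other WT-unique OCRs were in the windows of Cd3e (5.5 kb upstream), Zap70 (7.2 kb downstream), Lcp2 (7.7 and 18.4 kb downstream) and Tec (121.8 kb downstream, beyond the end of the gene). The other Il2ra mut/mut-unique OCRs lay at Cd3e (1.1 kb upstream), Lck (1.2 kb downstream), Lcp2 (6.3 kb downstream) and the Tec promoter. None of the main start sites of Cd3e, Cd3d, Cd3g, Cd247, Lck, Zap70, Lat or Lcp2 was in a unique OCR. With this stricter −log10 q the WT-unique OCRs numbered 6 and the Il2ra mut/mut-unique OCRs 10.

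No region of the TCR genes passed a test of the difference in fold enrichment. In limma on quantile-normalized log2 fold enrichment, 0 of the 64 regions had an adjusted p below 0.05, as did 0 of the 38426 regions tested in the genome (0% in either direction). The smallest adjusted p among the 64 was 0.582, which was also the smallest in the genome. An unadjusted p below 0.05 was found in 1 region higher in Il2ra mut/mut and 8 lower, against 4.18% and 4.37% of the genome. The 64 differences ranged from −0.97 to 0.60 on the log2 scale with SE of 0.11 to 0.41, and their median was −0.11, against 0.00 over all regions. Without WT replicate 2 this median was 0.01 and the counts were 6 higher and 5 lower. Without Il2ra mut/mut replicate 1 the median was −0.04 with 1 higher and 4 lower, and without replicate 2 it was −0.03 with 3 higher and 2 lower. Of the 4 libraries left out in turn, only WT replicate 1 made the lean toward WT larger, with a median of −0.17 and 3 higher and 8 lower regions.

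Of the 8 lower regions, 5 were those of Cd247 at 7.6 kb upstream (log2 difference −0.88, SE 0.27) and at 14.7 (−0.87, SE 0.29), 27.8 (−0.88, SE 0.24), 40.1 (−0.61, SE 0.23) and 49.1 kb (−0.97, SE 0.27) downstream. Leaving out 1 library gave 6 such regions without WT replicate 1, 4 without WT replicate 2 and 2 without either Il2ra mut/mut replicate. The remaining 3 were the Lck proximal promoter (−0.61, SE 0.18), the Cd3e region at 11.3 kb (−0.83, SE 0.34) and the Lcp2 region at 3.9 kb upstream (−0.61, SE 0.22), and the higher region was that of Lcp2 at 6.3 kb (0.56, SE 0.20). The promoters of Cd247 (−0.41, SE 0.31), Lck (distal, 0.22, SE 0.15) and Tec (0.60, SE 0.29) differed from 0 by more than 1 SE. So did the region 1.2 kb downstream of the distal Lck start site (0.39, SE 0.31). Every other promoter region of the 9 genes apart from the Lck proximal promoter had a difference within 1 SE of 0.

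**Figure D4:**
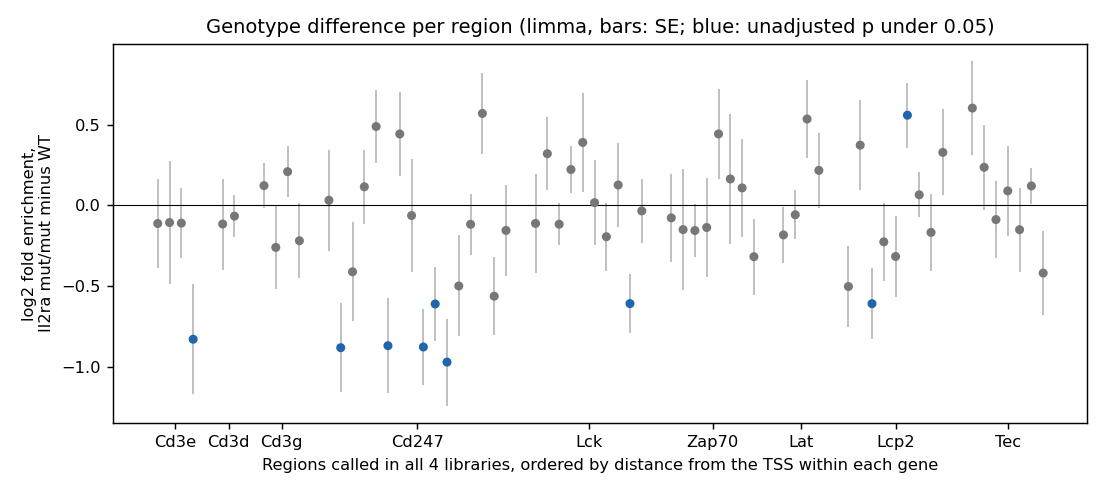
Difference in log2 fold enrichment between Il2ra mut/mut and WT (y axis, with SE as bars) for the 64 regions called in all 4 libraries, ordered by gene and by distance from the start site (x axis). Blue points have an unadjusted limma p below 0.05, and 5 of the 8 below 0 belong to Cd247.

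The share of each window under called peaks was highest in WT replicate 2 for all 9 genes, as it was for 51.6% of the protein-coding genes. For Cd3e it was 10.7% and 13.7% in WT against 8.49% and 9.62% in Il2ra mut/mut. For Cd247 the values were 8.39% and 12.7% in WT against 7.28% and 8.42% in Il2ra mut/mut, and for Tec 2.71% and 4.46% against 2.77% and 2.86%. Both WT libraries covered more than both Il2ra mut/mut libraries in the windows of Cd3e, Cd3d, Cd3g and Lat (exact permutation test, two-sided, p = 0.33, the smallest possible), while the libraries overlapped for the other 5 genes. This order was found for 22.3% of the protein-coding genes, and the reverse for 7.76%. The 3 windows of the CD3 cluster share most of their bases and are not separate observations. Leaving out WT replicate 2 reduced the difference (Il2ra mut/mut minus WT) from −3.17 to −1.69 percentage points for Cd3e, from −2.81 to −1.49 for Cd3d, from −2.62 to −1.25 for Cd3g and from −2.04 to −0.907 for Lat. For Cd247 it went from −2.71 to −0.537, for Lcp2 from −2.02 to −0.224 and for Lck from −2.01 to −0.0750. For Lcp2 it was −1.04 without Il2ra mut/mut replicate 1. For Zap70 the mean was 8.75% in WT against 8.46% in Il2ra mut/mut, and the direction turned when WT replicate 2 or Il2ra mut/mut replicate 1 was left out, as it did for Tec without WT replicate 2.

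**Figure D5:**
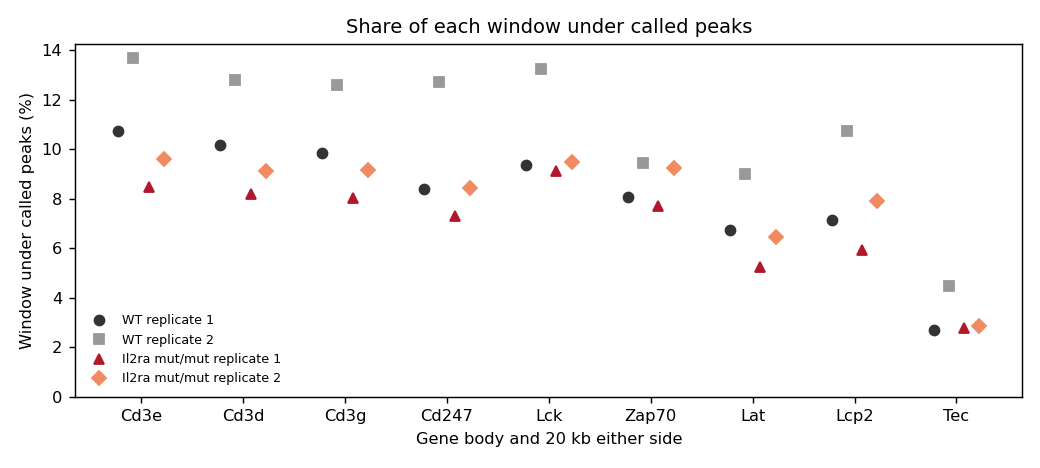
Percent of each window (gene body and 20 kb on either side) under called peaks (y axis) for the 9 genes, with 1 point per library. WT replicate 2 is the highest point in all 9 windows, and Tec has the lowest coverage, 2.71% to 4.46%.

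The words were searched, on both strands, in the sequence 150 bases on either side of the summit of each region called in all 4 libraries. The letters searched were CNGGAAG for ETS factors, TGNGGTT for RUNX factors, TTCNNNGAA for STAT factors and CTTTGAT for TCF/LEF factors. For the other families they were CAGNTG (the E-box), TGANTCA (AP-1 factors), TGGGAA (Ikaros factors), GTAAACA (forkhead factors), GGGCGG (KLF and SP factors) and AGATAA (the GATA family), with a longer word for CTCF. Some can overlap each other in a sequence, as Ikaros words do with ETS and STAT words. An E-box word was found in 65.6% of the 64 regions (95% Wilson interval 53.4 to 76.1) and in 56.1% of 38281 regions of the genome. ETS words were found in 45.3% (33.7 to 57.4), against 38.5%, and RUNX words in 26.6% (17.3 to 38.5), against 21.3%.

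STAT words, the kind of sequence bound downstream of the IL-2 receptor, were found in 10.9% of the regions (5.40 to 20.9), against 8.81% in the genome. KLF/SP words were less frequent in the regions of the TCR genes, 17.2% (9.88 to 28.2) against 28.0%. The genome value lay inside the interval of the TCR genes for all of these words. With 50 bases on either side of the summit it lay outside for 3 of the 11 words. E-box words were then found in 40.6% of the regions (29.5 to 52.9), against 24.6%, KLF/SP words in 6.25% (an interval that began at 2.46 and ended below the genome value), against 15.2%, and TCF/LEF words in 6.25% (the same interval), against 1.72%. The GC content did not differ, with a median of 51.5% in both sets. A matched word is a description of the sequence and not evidence of binding.

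The wider pathway was described with 40 other genes of proximal TCR signalling. Their promoters were open in all 4 libraries in 38 of 40 genes (95.0%), the exceptions being Cd8a, which had no peak, and Ubash3b, which lacked one in Il2ra mut/mut replicate 1. The coreceptor Cd4 had promoter percentiles of 83.2 and 83.8 in WT against 76.4 and 71.4 in Il2ra mut/mut. Fyn, the other SRC family kinase of T cells, had 98.6 and 99.2 in WT against 99.1 and 99.2 in Il2ra mut/mut. The highest promoter percentiles of the list were those of Bcl10 (99.6 to 99.9), an adaptor of the NF-κB branch.

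Of the 339 regions of these 40 genes called in all 4 libraries, 57 stood higher in both Il2ra mut/mut libraries (16.8%, against 26.2% in the genome) and 55 in both WT libraries (16.2%, against 12.6%). Calls in 1 genotype only numbered 37 for WT (7.01% of the 528 regions called in 2 or more libraries, against 6.97% in the genome) and 5 for Il2ra mut/mut (0.947%, against 9.19%). Leaving out 1 library moved these between 52 and 66 (without Il2ra mut/mut replicate 1) and 153 and 8 (without WT replicate 1), with 60 and 46 without WT replicate 2 and 82 and 22 without Il2ra mut/mut replicate 2. With a −log10 q value no lower than 3 they were 27 and 8. The corresponding counts of the 9 genes were 3 and 2 of 89.

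The promoters of relatives of the 9 genes that serve other receptors or lineages were mostly closed. Of 13 such genes, 1 (Fgr) had a promoter peak in all 4 libraries and 8 had none in any. Their windows still held 107 regions, 27 of them called in all 4 libraries, with 6 at Cd79a and 5 at Btk. Over the genome 14.1% of regions were called in all 4. Syk, the relative of Zap70 in B cells, had a promoter peak in 3 libraries with percentiles of 26.6 and 79.9 in WT, and of 7.34 in Il2ra mut/mut replicate 2. Among those with no promoter peak were Lyn and Blk (SRC family), Btk and Bmx (TEC family), Blnk (the B cell counterpart of Lcp2), Cd79a and Fcer1g, while Lat2 had one in WT replicate 2 only, at a percentile of 24.5. In both genotypes, then, promoters called in all 4 libraries numbered 9 of 9 for the TCR genes against 1 of 13 for their relatives.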

How the data were processed

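ATAC-seq peaks of LN Treg cells were analysed for WT and Il2ra mut/mut, with 2 libraries each. Per the study's methods and the submitters' notes, reads were trimmed (Trim Galore 0.3.7), aligned to mm10 with BWA (0.7.13), cleared of duplicates and mitochondrial reads (SAMtools 0.1.19 and Picard 1.92 are named), shifted, and peaks were called in each library separately with MACS2 (2.1.0). The authors deposited for each peak the fold enrichment over background at the summit, the −log10 p and −log10 q values from MACS2, and an integer score derived from the −log10 q, which was not used here. Libraries were compared by percentile or, in limma, after quantile normalization of log2 fold enrichment with no pseudocount. In 100% of peaks a whole read number (tolerance 0.01 reads) explained the fold enrichment as reads plus 1 over background plus 1, which gives the reads at a summit but not the depth.

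The genes and gene lists were chosen with earlier results of these data known. Peaks were joined at 1 bp of overlap, and a region took, in each library, its peak with the highest −log10 p. GENCODE genes of GRCm38 and the RefSeq sequence of the same build were used. A promoter peak lies within 1 kb of a start site. IDR was fitted in Python (3.11.15; numpy 2.4.6, pandas 2.3.3, scipy 1.17.1) on all regions of each genotype. The difference between genotypes was tested with limma (3.58.1, R 4.3.3, trend) with Benjamini-Hochberg adjustment over the 38426 regions called in all 4 libraries. IDR, region and limma steps were tested on simulated data. For each locus the text names the region at the main start site, the strongest region and every region that was unique, called in 1 genotype only or separated between genotypes, the last being added to the rule after the values were seen. Wilson intervals cover counting error only. Sequences were read with pysam (0.24.0) and figures drawn with matplotlib (3.10.9).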

Additional observations from a re-analysis of the deposited data

How the results depend on the processing

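The counts at the TCR genes moved with the lists and with single libraries. With only peaks of −log10 q of 3 or more, calls in WT only numbered 1, calls in Il2ra mut/mut only 4, regions with higher percentiles in Il2ra mut/mut 20 and in WT 6, and WT-unique OCRs 6. With equal numbers of peaks per library, 18 regions had higher percentiles in WT. The cause of these shifts was not tested. Leaving out 1 library, which leaves 1 against 2, gave 5 to 25 calls in WT only, 3 to 6 in Il2ra mut/mut only, 18 to 35 regions higher in Il2ra mut/mut and 14 to 31 higher in WT. The difference in covered share of the Zap70 window (Il2ra mut/mut minus WT, in percentage points) ranged from −1.06 to 0.465, with 0.388 without WT replicate 2, and that of the Tec window from −1.65 to 0.104, the last without WT replicate 2.

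In limma, 0 regions of the 9 genes passed an adjusted p of 0.05 under any normalization, filter, pseudocount or left-out library. Over the whole genome, median centring called 142 regions higher and 176 lower, and no normalization 3 and 11. With a replicate block the count at the 9 genes was 0 in both directions. The libraries with the same number did not deviate together (correlation of deviations 0.0109), so the numbers were not taken as pairs. Without IDR, with a threshold of 0.01 or with another ranking, the numbers of unique OCRs stayed within 1.5 times those reported. With 50 bases on either side of the summit in place of 150, every word was rarer over all regions and 10 of 11 at the TCR genes (the forkhead word stayed at 3.12%), and 8 of 11 were more frequent at the TCR genes than over all regions, against 9 before. With this window the genome value lay outside the interval of the TCR genes for E-box, KLF/SP and TCF/LEF words. Depth is unknown, and the median peak of a library held 8 to 10 reads at its summit, which limits the precision of weak regions.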
